A study of Mus musculus with 9 samples.

Results

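The insulin-like growth factor (IGF) family was followed in hormone-receptor-positive (HR+) mammary epithelial cells through early pregnancy. All probes annotated to 10 member genes were taken by exact gene symbol, which gave 24 of the 45281 probes of the array and 10 of its 19057 named genes. The members were the ligands Igf1 and Igf2, the receptors Igf1r and Igf2r, the complex subunit Igfals and the binding proteins Igfbp2, Igfbp3, Igfbp4, Igfbp5 and Igfbp7.

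HR+ cells were compared at day 7 of pregnancy, day 3 of pregnancy and the virgin state in metestrus, with 3 mice per group and 1 Illumina Mouse WG-6 v2.0 bead array per mouse. All animals were FVB females (FVB/N in the methods), with an age of 9 to 11 weeks in the labels. For the pregnant mice, which came from timed matings, the methods give this as the age at mating, while virgin mice were 11 weeks old. All were injected with the thymidine analogue EdU 24 hours before harvest. The cells were sorted live by CD24, CD49f, Sca1 and CD49b after exclusion of CD45+ cells, and RNA equivalent to 167 cells of each animal was amplified before hybridisation. Mean raw signal per array was 348 to 440 at day 7, 353 to 520 at day 3 and 284 to 316 in virgin mice, and 28.1 to 48.4% of probes reached a raw signal of 100. Precision is limited by the 3 arrays in each group.

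IGF1 and IGF2 are secreted growth factors that signal through the tyrosine kinase receptor encoded by Igf1r, while the receptor encoded by Igf2r takes up IGF2 and delivers it to lysosomes. Most extracellular IGF is held by binding proteins, which carry the ligands, limit their access to the receptor and release them when proteases cut the binding protein. In the mouse mammary gland, IGF signalling is known for its part in ductal growth and in alveolar expansion during pregnancy.

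The main change within the family was found at day 7. Igf2, Igfals, Igfbp5 and Igfbp7 were higher at day 7 of pregnancy than in virgin mice, by at least 98.9-fold for Igf2 and by 10.8-, 3.51- and 4.19-fold for the others on the brightest probe of each gene. The bound for Igf2 sets virgin arrays under background to background. Compared with day 3, these 4 genes and Igfbp4 were higher. The Igfbp7 calls (adjusted p = 0.051 and 0.074 by limma) and the Igfbp4 call (adjusted p = 0.061) were lost when certain single arrays were left out. The 4 other Igfbp7 probes stayed under background. At day 3, the only call against virgin mice was a 2.68-fold lower signal of Igfbp5 on 1 of its 3 probes. Igf1 and both receptor genes passed the test in none of the 3 comparisons.

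A probe was called changed if its group means differed at least 2-fold at a Benjamini-Hochberg adjusted p of at most 0.10 in limma. Probes were tested if at least 1 group mean reached log2(100), which is 6.64 and is referred to here as background. This left 13 of the 24 member probes and 9 of the 10 genes, since both Igfbp2 probes stayed under background. A probe that is bright in a single group passes this filter through that group, so the 13 probes are not the whole family. The 11 probes that were not tested lay between 6.06 and 6.69 on all arrays, with differences between group means of -0.22 to 0.16. The closest to the limit were Igfbp4 probe ILMN_2694955, 0.048 above it, and Igfbp3 probe ILMN_2727503, 0.022 under it.

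Of the 13 tested probes, 6 (from 4 genes) were called higher at day 7 than in virgin mice and 0 were called lower. Over all 18707 tested probes, 2.89% were called higher and 2.99% lower in that comparison. Counted by gene, 4 of the 9 genes with a tested probe were called higher. Over the brightest probes of all tested genes the share was 3.55%. Several of the 6 probes are of Igfbp5, and the members were chosen with earlier results of these data known. These shares are therefore a description and not a test. The median log2 difference was 0.96 over the 13 member probes and -0.01 over all tested probes. Between day 7 and day 3, 7 member probes (from 5 genes) were called higher at day 7 and 0 lower, against 2.10% higher and 1.73% lower of all tested probes, with medians of 1.08 and -0.01. At day 3 against virgin mice, 0 member probes were called higher and 1 lower, against 2.24% and 2.43% of all tested probes, with medians of -0.03 and -0.01. Each count of 0 was also 0 by Cyber-T, while at an unadjusted p under 0.05 limma counted 1 probe lower at day 7 against virgin mice, 1 lower at day 7 against day 3 and 2 higher at day 3. The comparisons of day 7 and day 3 with virgin mice use the same virgin arrays.

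**Figure D1:**
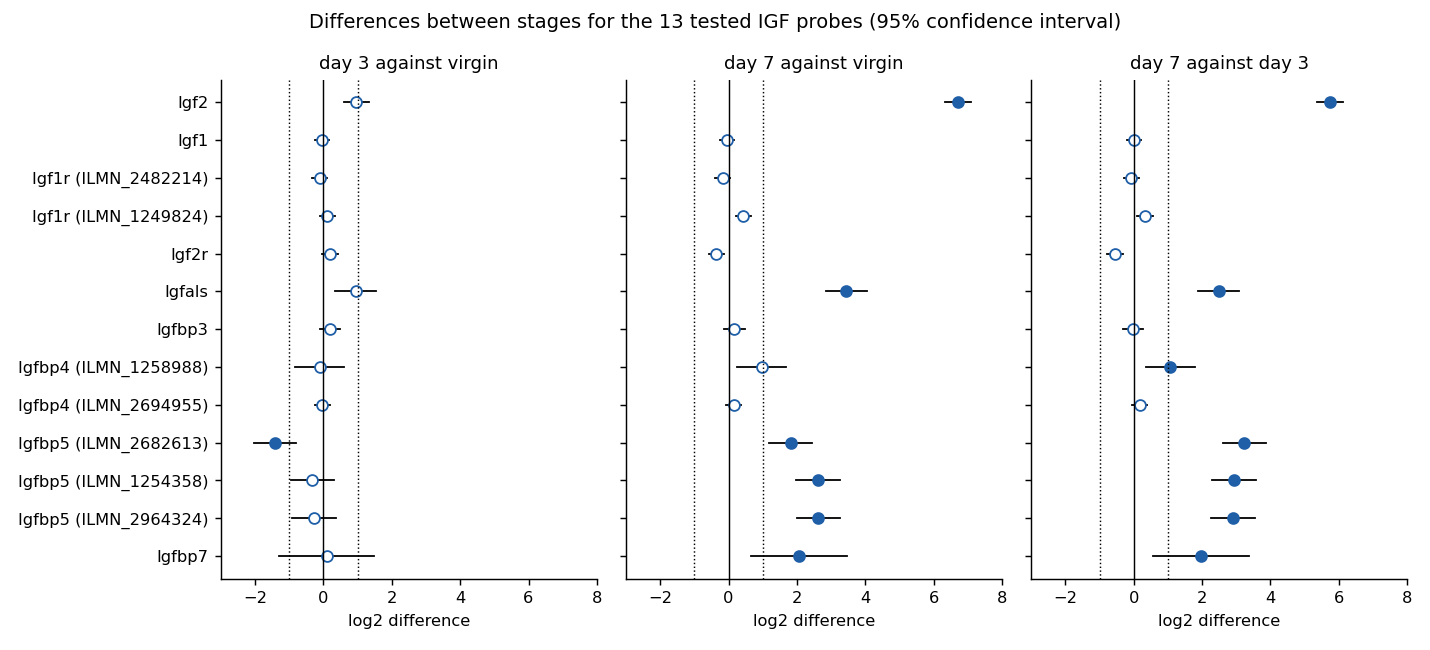
Log2 difference (x axis) with its 95% confidence interval for each of the 13 tested IGF probes, in 3 comparisons of 3 arrays per group. Filled points passed the test, open points did not, and dotted lines mark a 2-fold difference. Igf2 lies farthest right at day 7, at 6.71 against virgin mice and 5.74 against day 3, while the receptor probes and Igf1 stay inside the dotted lines in all panels.

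Igf2 encodes the IGF known best as the fetal growth factor, and in the mouse it is imprinted and expressed from the paternal allele. The annotation places Igf2 on chromosome 7 beside the insulin gene Ins2. RefSeq lists 4 start sites for it on the minus strand of the GRCm38.p6 build, and the windows from 250 bases before to 50 bases after the most upstream and the most downstream of them are shown because Igf2 had the largest change of the family. Start 1 lies at chr7:142666767-142667066 and start 4 at chr7:142657447-142657746. Letters in capitals would mark TATAAA, TTCNNNGAA (the palindrome of STAT factors), ACANNNTGT (a pair of steroid receptor sites) or the palindromic estrogen response element, searched on both strands.
Igf2 start 1: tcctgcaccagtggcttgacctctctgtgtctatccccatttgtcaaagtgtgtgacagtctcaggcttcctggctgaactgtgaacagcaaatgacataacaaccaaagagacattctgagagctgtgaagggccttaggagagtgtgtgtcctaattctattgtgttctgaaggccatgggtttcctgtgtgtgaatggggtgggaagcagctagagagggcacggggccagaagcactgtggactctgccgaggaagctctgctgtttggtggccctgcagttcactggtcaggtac
Igf2 start 4: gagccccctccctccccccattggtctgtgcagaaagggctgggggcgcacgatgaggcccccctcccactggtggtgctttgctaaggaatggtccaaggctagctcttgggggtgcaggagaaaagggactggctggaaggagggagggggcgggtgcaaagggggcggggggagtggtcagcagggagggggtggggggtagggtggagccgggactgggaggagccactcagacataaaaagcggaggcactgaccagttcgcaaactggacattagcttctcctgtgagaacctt
None of the 4 Igf2 windows held any of these letters. The percentage of all 32851 RefSeq mouse promoter windows with a match was 13.6% for TATAAA, 8.3% for TTCNNNGAA, 6.85% for ACANNNTGT and 0.07% for the estrogen response element.

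Igf2 is read by 1 probe. Its log2 signal was 13.23, 13.13 and 13.66 on the day 7 arrays, 7.48, 7.54 and 7.77 on the day 3 arrays and 6.62, 6.85 and 6.43 on the virgin arrays. The 3 groups did not overlap, and 2 of the 3 virgin arrays were under background. At day 7 Igf2 rose by 6.71 against virgin mice (SE 0.17, adjusted p = 1.6e-07 by limma). Since the virgin mean (6.63) lay just under background, the fold is given as at least 98.9, with the virgin arrays under background set to that level. Against day 3 the difference was 5.74 (SE 0.17, adjusted p = 1.9e-06), or 53.6-fold (41.3- to 69.5-fold), the highest of all tested probes. Because RNA was taken from pooled cells of a sort, more cells with a transcript and more RNA per cell cannot be told apart, here or below.

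At day 3 Igf2 was 0.97 above virgin mice on the log2 scale (SE 0.17, adjusted p = 0.0055), which is 1.95-fold as measured, or at least 1.85-fold with virgin arrays under background set to it, and under the 2-fold limit. All 3 day 3 arrays lay above all 3 virgin arrays, with a gap of 0.64 between the nearest of them. The call depended on the setting: Igf2 passed at day 3 with scanner intensities that were quantile normalised here (1.03), scaled to the array median (1.22) or corrected by normexp (1.19), and without virgin replicate 2 (1.07) or day 3 replicate 1 (1.02). With cyclic loess it was 0.50 (adjusted p = 0.105 by limma), the lowest value of all alternatives.

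Igf1, the ligand that growth hormone induces in liver and stroma, had 1 tested probe of 2. Its log2 signal was 6.69 to 6.83 at day 7, 6.72 to 6.79 at day 3 and 6.71 to 6.93 in virgin mice, and the groups overlapped. The difference at day 7 against virgin mice was -0.04, with a 95% confidence interval of -0.24 to 0.17, and that at day 3 was -0.04 (-0.24 to 0.17). Its highest group mean lay 0.15 above background.

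**Figure D2:**
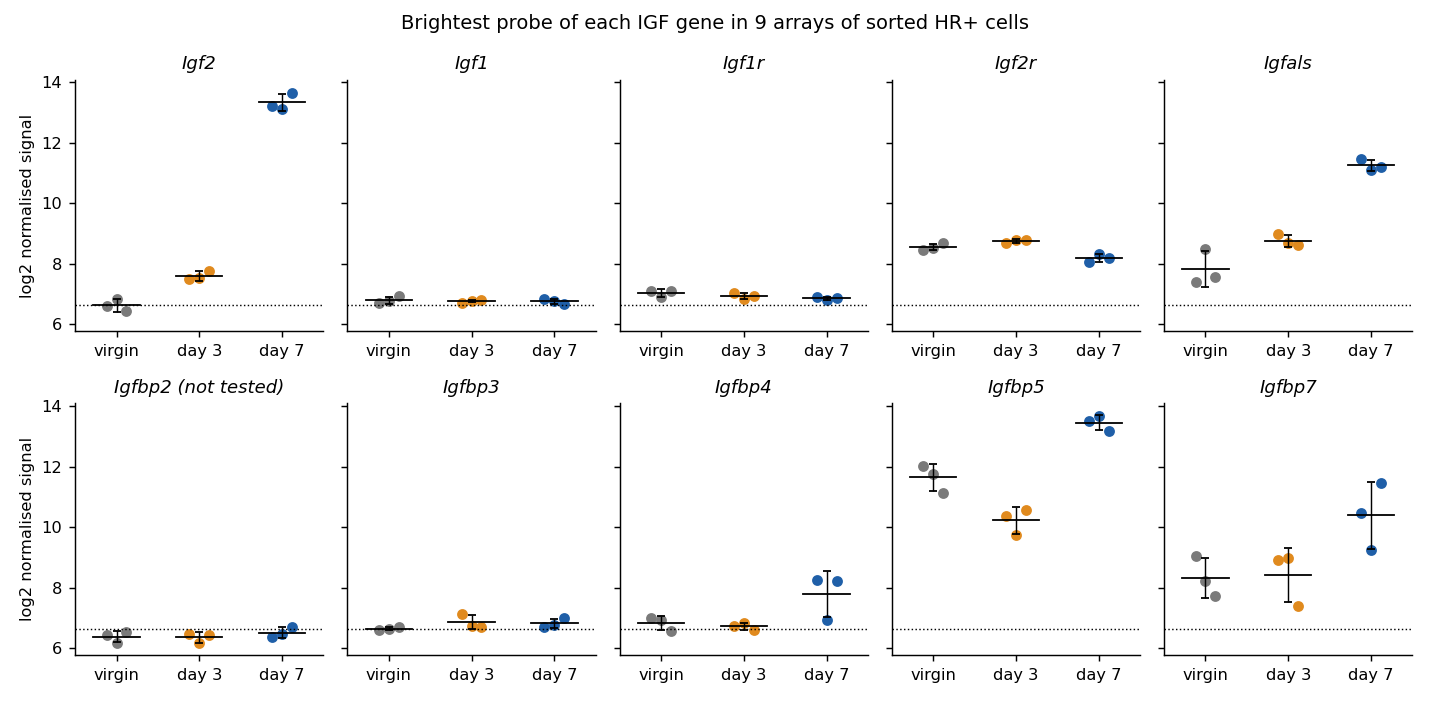
Log2 normalised signal (y axis) of the brightest probe of each of the 10 IGF genes on 9 arrays, 3 per stage, with group mean and SD. The dotted line is background (6.64). Igf2 and Igfals lie higher at day 7 than at either other stage, Igfbp5 is lowest at day 3, and Igf1, Igf1r, Igfbp2 and Igfbp3 stay near background throughout.

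Igf1r, the signalling receptor of both ligands, was represented by 4 probes, of which 2 were tested. The brighter, ILMN_2482214, read 6.92, 6.80 and 6.86 at day 7, 7.02, 6.84 and 6.93 at day 3 and 7.11, 6.89 and 7.09 in virgin mice. These groups overlapped in every comparison, and the difference at day 7 against virgin mice was -0.17 (95% confidence interval -0.39 to 0.04, adjusted p = 0.26 by limma). The other, ILMN_1249824, read 6.82, 7.05 and 6.89 at day 7, 6.74, 6.49 and 6.56 at day 3 and 6.51, 6.49 and 6.44 in virgin mice. All day 7 arrays lay above all others on this probe, and all virgin arrays were under background, so the day 7 mean was at least 1.21-fold higher than in virgin mice (adjusted p = 0.017, under the 2-fold limit). Neither probe passed the test.

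Igf2r encodes the clearance receptor for IGF2 and, in the mouse, is imprinted and expressed from the maternal allele. Its tested probe read 8.07, 8.34 and 8.20 at day 7, 8.68, 8.80 and 8.78 at day 3 and 8.46, 8.53 and 8.68 in virgin mice. Day 7 arrays were the lowest, without overlap with either other group. The difference at day 7 was -0.35 against virgin mice (SE 0.10, adjusted p = 0.043 by limma) and -0.55 against day 3 (SE 0.10, adjusted p = 0.0089), which are 1.28- and 1.46-fold lower and under the 2-fold limit. The direction against virgin mice was reversed, to 0.17, when arrays were scaled to their median. Under that scaling the median difference of all tested probes was also 0.17.

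Igfals encodes the acid-labile subunit, a leucine-rich protein that joins IGF and a binding protein in a ternary complex and prolongs the stay of IGF in the circulation. It is best known as a product of the liver. RefSeq lists 3 start sites on the plus strand of chromosome 17 (GRCm38.p6), and the 2 windows that held a TTCNNNGAA match are shown, with the match in capitals. They lie at chr17:24877594-24877893 (start 1) and chr17:24877981-24878280 (start 2).
Igfals start 1: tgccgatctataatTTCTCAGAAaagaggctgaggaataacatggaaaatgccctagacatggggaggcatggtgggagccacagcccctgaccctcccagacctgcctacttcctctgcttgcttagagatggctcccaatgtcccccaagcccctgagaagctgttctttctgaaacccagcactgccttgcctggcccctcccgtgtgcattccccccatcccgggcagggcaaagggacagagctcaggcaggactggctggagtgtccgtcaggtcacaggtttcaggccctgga
Igfals start 2: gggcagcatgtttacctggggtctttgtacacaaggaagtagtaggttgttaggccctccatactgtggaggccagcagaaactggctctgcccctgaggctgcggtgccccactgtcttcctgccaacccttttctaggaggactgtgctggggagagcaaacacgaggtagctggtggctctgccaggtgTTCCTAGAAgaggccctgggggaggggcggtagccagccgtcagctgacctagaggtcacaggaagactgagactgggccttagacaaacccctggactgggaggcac
The match begins at position -236 from start 1 and at position -58 from start 2. Such a match was found in 8.3% of all promoter windows, and no binding was measured.

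On its 1 probe, Igfals read 11.45, 11.11 and 11.21 at day 7, 9.00, 8.68 and 8.63 at day 3 and 7.40, 8.50 and 7.55 in virgin mice. The 3 groups did not overlap, though virgin replicate 2 lay within 0.13 of the lowest day 3 array. Igfals rose at day 7 by 3.44 against virgin mice (SE 0.26, adjusted p = 7.9e-05 by limma), which is 10.8-fold (95% confidence interval 7.17 to 16.4) and the 26th highest difference of all tested probes. It rose by 2.49 against day 3 (SE 0.26, adjusted p = 8.7e-04), or 5.61-fold (3.71 to 8.49). At day 3 Igfals was 0.95 above virgin mice (SE 0.26, adjusted p = 0.043), 1.93-fold and under the limit. It passed at day 3 when arrays were scaled to their median (1.55) or corrected by normexp (1.04), and without virgin replicate 2 (1.29) or day 3 replicate 3 (1.02).

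Igfbp5 encodes a secreted binding protein that attaches to extracellular matrix and is known in the mammary gland for its rise at involution. The annotation places it next to Igfbp2 on chromosome 1. Its RefSeq promoter window, chr1:72874816-72875115 on the minus strand (GRCm38.p6), is shown because Igfbp5 was the member called in all 3 comparisons on its brightest probe. None of the 4 motifs was found in it.
Igfbp5 start 1: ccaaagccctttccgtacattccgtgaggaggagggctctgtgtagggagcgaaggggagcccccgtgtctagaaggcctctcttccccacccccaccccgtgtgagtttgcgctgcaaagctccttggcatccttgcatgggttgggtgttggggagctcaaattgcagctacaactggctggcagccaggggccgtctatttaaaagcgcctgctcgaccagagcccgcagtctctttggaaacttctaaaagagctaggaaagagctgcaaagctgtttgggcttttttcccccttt

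All 3 Igfbp5 probes were tested. The brightest, ILMN_2682613, read 13.51, 13.68 and 13.17 at day 7, 10.35, 9.73 and 10.57 at day 3 and 12.03, 11.75 and 11.14 in virgin mice. The 3 groups did not overlap, with day 3 lowest and day 7 highest. On this probe Igfbp5 fell by 1.42 at day 3 against virgin mice (SE 0.27, adjusted p = 0.0094 by limma), and rose at day 7 by 1.81 against virgin mice (SE 0.27, adjusted p = 0.0027) and by 3.23 against day 3 (SE 0.27, adjusted p = 3.1e-04).

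The other probes did not show the day 3 decrease. ILMN_1254358 read 12.38, 12.53 and 12.25 at day 7, 9.63, 8.96 and 9.78 at day 3 and 9.97, 10.18 and 9.17 in virgin mice. ILMN_2964324 read 11.77, 12.13 and 11.86 at day 7, 9.17, 8.43 and 9.44 at day 3 and 9.35, 9.69 and 8.84 in virgin mice. On both, the day 3 and virgin arrays overlapped, with differences of -0.32 (95% confidence interval -0.96 to 0.32, adjusted p = 0.52 by limma) and -0.28 (-0.92 to 0.36, adjusted p = 0.57). Their day 7 arrays lay above all others, at 2.62 and 2.63 above virgin mice (adjusted p = 4.7e-04 and 4.5e-04) and 2.94 and 2.91 above day 3 (adjusted p = 5.2e-04 for each).

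The change at day 3 against virgin mice was 1.10 lower on the brightest probe than on ILMN_1254358 (SE 0.15), computed array by array and chosen after the values were seen. Against ILMN_2964324 it was 1.14 lower (SE 0.19). The exact two-sided permutation p was 0.10 in each case, the smallest that 3 arrays against 3 allow. The day 3 decrease of the brightest probe lost its call when arrays were scaled to their median (-0.76, or -0.96 relative to the median of all tested probes). Under that scaling the other probes were at 0.40 each at day 3. At day 7, the calls on all 3 probes remained under every alternative in which they were tested.

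**Figure D3:**
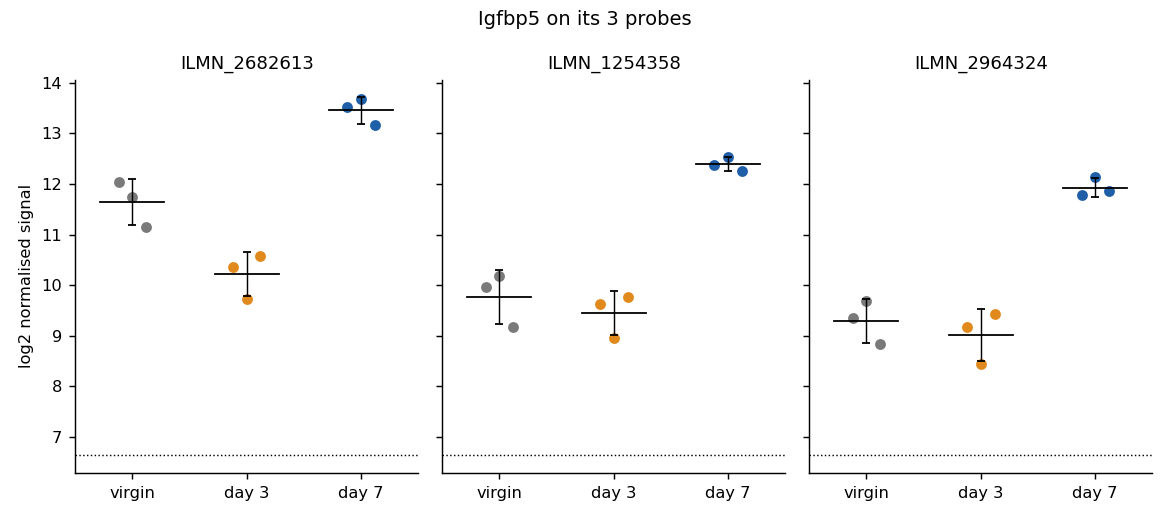
Log2 normalised signal (y axis) of Igfbp5 on its 3 probes, with 3 arrays per stage, group mean and SD, and background as a dotted line. Day 7 lies above both other stages in each panel, while day 3 lies clear of the virgin arrays on ILMN_2682613 only.

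Igfbp7 encodes a related secreted protein with low affinity for IGF, known for strong expression in vascular endothelium. It has 5 probes, of which 4 read 6.13 to 6.51 on all arrays and were not tested. The tested probe, ILMN_2764588, read 10.46, 9.24 and 11.47 at day 7, 8.89, 8.96 and 7.40 at day 3 and 9.03, 8.22 and 7.73 in virgin mice. The day 7 arrays lay above all others, but day 7 replicate 2 was within 0.21 of the highest virgin array, and the spread within groups was the widest of the family (SD 1.12 at day 7, 0.89 at day 3 and 0.66 in virgin mice, n = 3 each).

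Igfbp7 rose at day 7 by 2.07 against virgin mice (SE 0.61, adjusted p = 0.051 by limma) and by 1.97 against day 3 (SE 0.61, adjusted p = 0.074). The 95% confidence intervals were 1.59- to 11.0-fold and 1.49- to 10.3-fold. At day 3 the difference from virgin mice was 0.09 (-1.30 to 1.49). Leaving out virgin replicate 2 (2.01), virgin replicate 3 (1.77), day 7 replicate 1 (2.03) or day 7 replicate 3 (1.53) ended the call against virgin mice. The call against day 3 was lost without any of the 3 day 3 arrays (2.21, 2.24 and 1.46) and without day 7 replicate 1 (1.94) or 3 (1.43), and also with scaling to the median (1.89), with no filter and with the replicate number as a block.

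Igfbp4 encodes a binding protein known as an inhibitor of IGF that the protease PAPP-A cuts. Its brighter probe, ILMN_1258988, read 8.25, 6.92 and 8.21 at day 7, 6.73, 6.82 and 6.60 at day 3 and 6.99, 6.92 and 6.57 in virgin mice. On day 7 arrays 1 and 3 it stood over 1 log2 unit above all other arrays, whereas day 7 replicate 2 lay among the virgin arrays. It rose by 1.08 against day 3 (SE 0.32, adjusted p = 0.061 by limma), or 2.11-fold (95% confidence interval 1.28 to 3.47). Against virgin mice it was at 0.96 (SE 0.32, adjusted p = 0.072), 1.95-fold and under the limit, and it passed without day 7 replicate 2 (1.40) or virgin replicate 1 (1.05), with array weights (1.04) and with each of the 4 other normalisations, from 1.01 to 1.25.

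The Igfbp4 call against day 3 was lost with no filter, without any of the 3 day 3 arrays (1.08, 1.13 and 1.02), and without day 7 replicate 1 (0.85) or 3 (0.87). The other Igfbp4 probe, ILMN_2694955, was at 0.15 at day 7 against virgin mice (95% confidence interval -0.07 to 0.37) and stayed within 0.05 of background in its highest group. The Igfbp4 promoter window held TATAAA at position -28 and no other of the 4 motifs.

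Igfbp3 encodes the main carrier of IGF in blood, and lies beside Igfbp1 on chromosome 11. On its tested probe of 2, differences were 0.17 at day 7 (95% confidence interval -0.12 to 0.47), 0.20 at day 3 (-0.09 to 0.50) against virgin mice, and -0.03 between day 7 and day 3. The groups overlapped in all 3 comparisons and their means were within 0.20 of background. Igfbp2 encodes a binding protein found in many fetal tissues. Its probes read under background in every group mean, so that a change could not be seen at this signal.

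Markers of other cells that the sort could hold were read beside these results. Of 8 tested endothelial markers, Vwf rose by 1.55 at day 7 against virgin mice (adjusted p = 0.0037 by limma), and the other 7 were not called. The summed signal of the endothelial list was 4639 to 6643 at day 7, 2008 to 2524 at day 3 and 2155 to 3044 in virgin mice, and the defining marker Cdh5 stayed under background in each group mean. Pecam1 was 0.82 higher at day 7 (adjusted p = 0.013), under the 2-fold limit. Of 7 tested basal markers, Krt17 (3.66, adjusted p = 3.6e-04) and Trp63 (at least 3.32-fold, adjusted p = 0.019) rose at day 7 and Krt5 stayed under background. By Cyber-T, 4 of these 7 were called higher at day 7 against virgin mice and 0 lower. The median log2 difference of the 7 was 1.86. The basal sum was 3444 to 13611 at day 7, 1625 to 4892 at day 3 and 986 to 1959 in virgin mice.

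Among the day 7 arrays, Igfbp7 was highest and the basal sum was highest (13611) in replicate 3, where the endothelial sum was lowest (4639). In replicate 2, where Igfbp7 and Igfbp4 were lowest, the basal sum was 5003 and the endothelial sum 6643. In replicate 1 the sums were 3444 and 5732. The part of other cells in the day 7 values of Igfbp7 and Igfbp4 was not tested. The 6 tested pericyte markers had 0 calls at day 7 by limma and by Cyber-T, with 2 higher at an unadjusted p under 0.05, and their sum was 1002 to 1190 at day 7 and 905 to 957 in virgin mice.

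**Figure D4:**
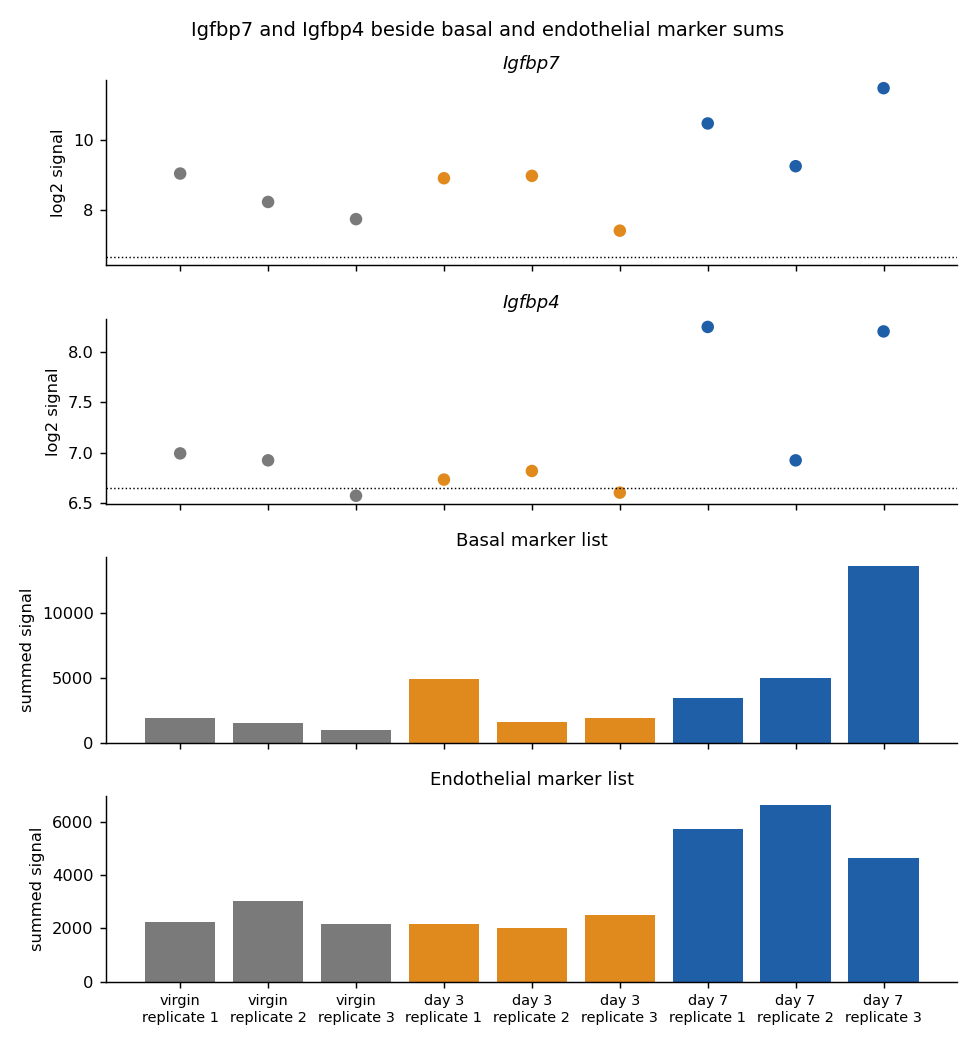
Log2 normalised signal of Igfbp7 and Igfbp4 (upper panels, background dotted) above the summed linear signal of the basal and endothelial marker lists (lower panels) on each of the 9 arrays. The basal sum peaks in day 7 replicate 3 at 13611 and the endothelial sum in day 7 replicate 2 at 6643, while Igfbp4 is near 6.92 in day 7 replicate 2.

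For fibroblasts, a known source of IGF ligands in the gland, 1 of 6 tested markers (Dcn) fell by 2.24 at day 7 against virgin mice (adjusted p = 1.8e-04 by limma) and 0 rose by limma or Cyber-T, with 1 higher at an unadjusted p under 0.05. The fibroblast sum was 1260 to 1511 at day 7, 3164 to 3759 at day 3 and 2875 to 3711 in virgin mice, and Col1a1 stayed under background. The HR+ identity of the sorted cells was read from 8 tested markers. S100a6, Foxa1 and Pgr fell by 2.29, 1.26 and 1.13 at day 7 against virgin mice (adjusted p = 4.1e-06, 1.1e-04 and 0.002 by limma), Tnfsf11, a target of progesterone, rose at least 15.2-fold (adjusted p = 2.7e-06), and Esr1 lay at 6.54 to 7.13 on all arrays. The HR+ sum was 3893 to 4430 at day 7, 4819 to 5437 at day 3 and 7175 to 8049 in virgin mice. Without S100a6, the sum of the other 7 markers was 2839 to 3536 at day 7, 2679 to 3017 at day 3 and 2635 to 3363 in virgin mice, with overlap of the groups. That sum still held the induced Tnfsf11, with mean log2 signals of 10.62 at day 7, 8.83 at day 3 and 6.59 in virgin mice. A sum without Tnfsf11 was not computed, so the overlap does not show that the remaining markers were stable. The 3 tested erythroid markers summed to 1747 to 5037 at day 7, 797 to 1152 at day 3 and 359 to 388 in virgin mice. At day 7, Hba-a1 (by 3.55, adjusted p = 1.3e-05) and Hbb-bs (at least 8.24-fold, adjusted p = 0.071, and under background in day 7 replicate 3) rose. At day 3 against virgin mice, 1 of the 3 was called higher. Of the 5 markers common to luminal cells, Krt19 fell by 1.07 at day 7 (adjusted p = 0.002). The part of these cells in the results was not tested.

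The HR- luminal cells, the other luminal type of the gland, were read from 9 tested markers. At day 7 against virgin mice Csn2, a milk protein gene, rose at least 5.09-fold (adjusted p = 4.8e-05 by limma), while Csn3, another milk protein gene, fell by 2.69 (adjusted p = 0.020) and Hey1 by 1.07 (adjusted p = 0.043). At day 3 Csn3 fell by 2.79 (adjusted p = 0.019) and Lcn2 by 1.82 (adjusted p = 5.7e-04). The HR- sum was 1947 to 4868 at day 7, 1812 to 3147 at day 3 and 5598 to 10472 in virgin mice, and the defining markers Elf5 and Kit lay at 6.44 to 7.08 and 6.38 to 7.64. Of 5 tested macrophage markers, Lyz2 and Cd74 fell by 1.21 and 1.02 at day 3 (adjusted p = 0.065 and 0.019). The part of these cells in the IGF values was not tested.

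The other genes of the IGF network were read from a list of 63, of which 51 had a named probe and 37 were tested on their brightest probe. Of the 37, 3 rose and 3 fell at day 7 against virgin mice, 2 rose and 3 fell at day 7 against day 3, and 1 rose and 2 fell at day 3 against virgin mice. Over the brightest probes of all 11239 tested genes, 3.55% rose and 3.73% fell, 2.63% rose and 2.17% fell, and 2.82% rose and 3.01% fell in these comparisons. The list's median log2 difference was 0.01 at day 7 and -0.03 at day 3 against virgin mice, beside -0.01 in each for all these genes.

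Socs2, which encodes a feedback inhibitor of growth hormone and STAT5 signalling, read 12.66, 12.20 and 12.40 at day 7, 11.42, 11.11 and 11.37 at day 3 and 9.67, 10.11 and 10.03 in virgin mice. The groups did not overlap. Socs2 rose by 1.36 at day 3 (SE 0.16, adjusted p = 9.7e-04 by limma) and 2.48 at day 7 (SE 0.16, adjusted p = 3.4e-05) against virgin mice. Ghr, the growth hormone receptor, moved the other way, with 7.02, 7.08 and 7.77 at day 7, 7.54, 7.07 and 7.23 at day 3 and 8.31, 8.38 and 8.81 in virgin mice. Both pregnant groups lay under all virgin arrays, and Ghr fell by 1.22 at day 3 and 1.21 at day 7 (adjusted p = 0.0079 and 0.0073). With scaling to the array median the Ghr differences were -0.74 and -0.78 and did not pass.

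Among genes that act on the binding proteins, Stc2, whose protein inhibits the IGFBP protease PAPP-A, read 8.49, 7.58 and 8.84 at day 7, 10.64, 10.38 and 10.84 at day 3 and 12.76, 14.04 and 14.04 in virgin mice. Each stage lay clear of the next. Stc2 fell by 5.31 at day 7 against virgin mice (SE 0.40, adjusted p = 7.4e-05 by limma), which is 39.7-fold, and by 2.99 at day 3 (SE 0.40, adjusted p = 0.0017). Adam28, a metalloprotease known to cut IGFBP3, read 7.88, 7.18 and 8.22 at day 7, 6.86, 6.56 and 6.42 at day 3 and 6.83, 6.08 and 6.34 in virgin mice. Day 7 lay above both other groups, whose means were under background, and Adam28 rose at least 2.08-fold against virgin mice (adjusted p = 0.011) and at least 2.06-fold against day 3 (adjusted p = 0.029). Against day 3 the log2 difference was 0.92, under the limit, without day 7 replicate 3.

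Inside the cell, Grb10, an adaptor that restrains insulin and IGF1 receptors, read 7.43, 7.02 and 6.79 at day 7, 8.73, 8.81 and 8.96 at day 3 and 8.80, 7.62 and 7.48 in virgin mice. It fell by 1.75 at day 7 against day 3 (SE 0.32, adjusted p = 0.0088 by limma), without overlap. Against virgin mice it was at -0.89 at day 7 (adjusted p = 0.097) and 0.86 at day 3 (adjusted p = 0.12), and virgin replicate 1 stood with the day 3 arrays. Without that replicate Grb10 passed at day 3 (1.28), as it did with scaling to the array median (1.50). At day 7 against virgin mice it passed as lower with normexp (-1.03) and without virgin replicate 2 (-1.06) or 3 (-1.13). Without virgin replicate 1 that difference was -0.47 (adjusted p = 0.12 by limma), and with scaling to the array median it was -0.52 (adjusted p = 0.28).

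The insulin receptor Insr, which binds IGF2 in its shorter form, read 11.67, 11.92 and 11.31 at day 7, 11.11, 11.10 and 10.59 at day 3 and 11.35, 11.77 and 11.90 in virgin mice. Day 3 was lowest, at -0.74 against virgin mice (adjusted p = 0.048 by limma, under the 2-fold limit). With scaling to the array median this Insr difference was -0.10 (adjusted p = 0.85 by limma). The docking protein genes Irs1 and Irs2 lay at 6.56 to 6.81 and 6.39 to 6.56, and Irs1 differed by 0.06 at day 7 and -0.03 at day 3 from virgin mice, while Irs2 was not tested. Pik3r3, a regulatory subunit of PI3 kinase, rose by 1.37 at day 7 (adjusted p = 0.025), which was 0.96 without virgin replicate 3. It was at 0.91 at day 3 against virgin mice and at 0.45 at day 7 against day 3 (adjusted p = 0.116 and 0.49 by limma). Rictor, a subunit of mTOR complex 2, fell by 1.23 at day 7 against virgin mice (adjusted p = 6.6e-04). It was already at -0.92 at day 3 (adjusted p = 0.0033 by limma, under the 2-fold limit). Between day 7 and day 3 its difference was -0.31 (adjusted p = 0.215). With scaling to the array median Rictor was at -0.76 at day 7 against virgin mice and did not pass. Eif4ebp1, a translation repressor under mTOR, fell by 1.17 at day 7 against day 3 (adjusted p = 0.045). The Eif4ebp1 call was lost without any of the 3 day 3 arrays (-1.21, -1.12 and -1.18) or day 7 replicate 2 (-0.85).

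**Figure D5:**
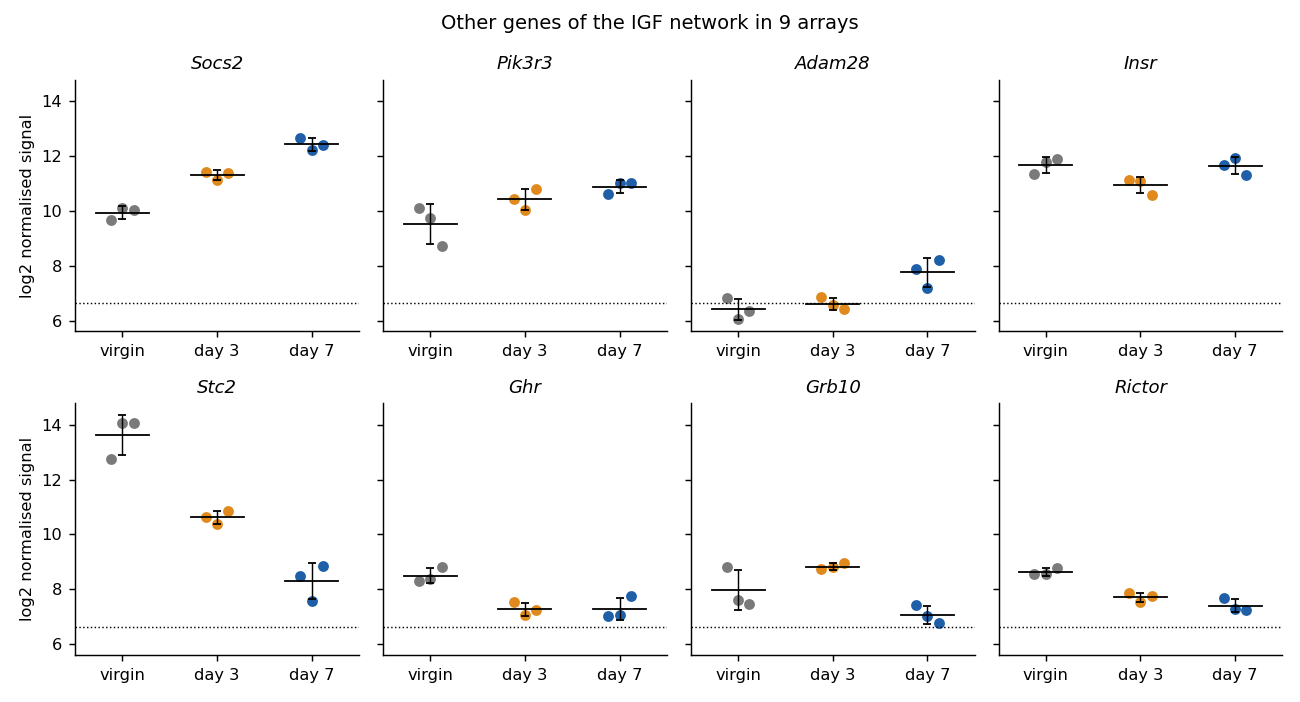
Log2 normalised signal (y axis) of 8 genes of the IGF network outside the members on 9 arrays, with 3 per stage, group mean and SD, and background dotted. Socs2 has group means that climb over the 3 stages and Stc2 means that descend, with no overlap of groups in either panel.

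The genes whose pattern over the 9 arrays was most like that of 4 members were sought among the brightest probes of all tested genes, as a description. The 9 points share their stages and group means, so a high value follows wherever the stages separate alike. For Igf2 these were Peg3, Tshb and Glb1 (Pearson r 0.996, 0.989 and 0.988). Peg3, itself a paternally expressed imprinted gene, had group means of 9.86 at day 7, 7.24 at day 3 and 6.78 in virgin mice. For Igfals they were Nrep, Hif3a and Heph (0.993, 0.987 and 0.987), with Nrep at means of 13.18, 9.10 and 7.80 at day 7, day 3 and in virgin mice. For Igfbp5, read on ILMN_2682613, they were Mmp14, Slc25a35 and Arhgap32 (0.978, 0.976 and 0.976), each with its lowest mean at day 3. The other Igfbp5 probes did not show the day 3 decrease of that probe. The day 3 mean of Mmp14 (6.59) was under background. For Igfbp7 they were Adam28, Trpc4 and Fxyd4 (0.938, 0.923 and 0.920), and Trpc4 and Fxyd4 had means of 6.71 and 7.34 at day 7 and were under background at the other stages.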

How the data were processed

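The members and lists were chosen with earlier results of these data known. From the scanned bead arrays the authors deposited 1 linear intensity per probe and array, not normalised. The authors also deposited log2 values, quantile normalised over the 9 arrays in Partek Genomics Suite 6.6, and these are the values reported. How beads were summarised to probes is not given in the sources used here. Columns for detection p hold no values. Quantile normalisation forces the same distribution on every array, so a shift common to most probes would not be seen. Median scaling, which was tried as an alternative, sets the array medians equal and cannot show such a shift either. It leaves other differences in distribution between arrays in place. The median raw signal was 87.2 to 99.3 per array, under the background of 100.

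Each array's log2 column correlated best with its own scanner intensity (r 0.997 to 1.000). Probe names came from the platform annotation and were checked through Entrez identifiers: 34885 probes had 1 gene, 18 several and 10378 none. Member probes were named by exact symbol. Probes were tested if 1 group mean reached log2(100). All 9 arrays entered 1 linear model by group in limma 3.58.1 (R 4.3.3) with moderated spread, and p was adjusted by Benjamini-Hochberg over 18707 probes. A call needed a 2-fold difference with adjusted p at or under 0.10. The script was tested on simulated data. Cyber-T used a window of 101 probes and 10 prior degrees of freedom.

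Where the mean of the dimmer group lay under background, a fold of a called gene is a lower bound with each of its arrays under that level set to it. Such a bound concerns background only and does not include the spread between arrays. The brightest probe is the one with the highest mean over 9 arrays. The named genes were all members, the called genes of the network list with Insr, Irs1, Irs2 and Grb10, up to 3 called genes and a defining marker of marker lists, and the 3 most alike genes of 4 members. Mice are separate animals, with 1 array each. Scan dates and chips were not given in the sources used here, so batches could not be examined. Promoter sequences are from RefSeq (GRCm38.p6), with 16 windows for the 10 genes, and members whose neighbours are named were placed from its annotation. Python 3.11.15 and matplotlib 3.10.9 were used for tables and figures.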

Additional observations from a re-analysis of the deposited data

Results flagged for a closer look

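The change from virgin mice differed between day 7 and day 3 for 7 member probes. Because both changes use the same virgin arrays, this is the comparison of day 7 with day 3 by limma that is given above, and no further result. The day 7 effect exceeded the day 3 effect by 5.74 on the log2 scale for Igf2, 2.49 for Igfals, 1.97 for Igfbp7 and 1.08 for Igfbp4. For Igfbp5 it exceeded it by 3.23 on ILMN_2682613, 2.94 on ILMN_1254358 and 2.91 on ILMN_2964324. In each case every day 7 array lay above every day 3 array. With 3 arrays per group, a single array that stands apart was not searched for.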

How the results depend on the processing

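The 39 values of the 13 tested member probes were recomputed under up to 23 alternatives, 879 comparisons in all, of which 812 kept direction and call, 22 lost a call, 23 gained it and 22 changed sign. The day 7 calls of Igf2, Igfals and the 3 Igfbp5 probes were kept in all alternatives in which they were tested. No alternative reversed a called value.

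The count of member probes called at day 3 against virgin mice, 1, was 2 with scanner intensities quantile normalised here, 2 with arrays scaled to the median, 3 with normexp and 3 with no minimum fold. Leaving out 1 array gave 1 to 3 at day 3, 5 to 7 at day 7 against virgin mice and 5 to 7 against day 3. The day 3 count rose to 3 without virgin replicate 2 and to 2 without day 3 replicate 1 or 3. With no minimum fold, calls over all probes numbered 3792 at day 3, 4328 at day 7 and 3299 between them, against 874, 1100 and 716. With scaling to the median, the median difference of all tested probes from virgin mice was 0.20 at day 3 and 0.17 at day 7. This scaling gave 2057 higher and 124 lower at day 3 (419 and 455 as reported) and 1768 higher and 228 lower at day 7 (541 and 559). Calls then numbered 2181 and 1996.

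Changed signs were all of values that had not passed. With median scaling Igf1 was at 0.057 at day 3 and 0.049 at day 7, Igf1r probe ILMN_2482214 at 0.12 and 0.0056, Igf2r at 0.17 at day 7, Igfbp4 at 0.011 and the dimmer Igfbp5 probes at 0.40 and 0.40 at day 3. Between day 7 and day 3, Igf1 was at 0.018 with cyclic loess and 0.022 with array weights. Leaving out 1 array at a time gave, at day 3 against virgin mice, -0.081 to 0.030 for Igf1, -0.053 to 0.0060 for Igfbp4 probe ILMN_2694955, -0.50 to 0.013 for Igfbp5 probe ILMN_2964324 and -0.20 to 0.61 for Igfbp7. It gave -0.083 to 0.028 for Igf1 at day 7 against virgin mice, and -0.040 to 0.034 for Igf1 and -0.12 to 0.10 for Igfbp3 between day 7 and day 3. The cause was not tested.

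With the replicate number as a block, member calls numbered 1, 6 and 6 at day 3, at day 7 against virgin mice and at day 7 against day 3. The block ended the call of Igfbp7 between day 7 and day 3 (1.97) and changed no other member call. Arrays share only a number: deviations of same-numbered arrays correlated at -0.05 to 0.07, and arrays did not all correlate best with their own number. Calls over all probes were 869, 1100 and 717 with the block. At an adjusted p of 0.05 the Igfbp7 calls and the Igfbp4 call were lost. Where a left-out array leaves 2 in a group, the spread is pooled over groups. Signal limits dim genes: Igf1, Igfbp2 and Igfbp3 lay near or under background, and the other probes of Igfbp7 gave no reading. The same alternatives were run for the named network genes, a choice made after seeing the data, and the calls they ended are given beside those values. For Socs2, the difference between day 7 and day 3 was 1.12 and lost its call without day 7 replicate 1 (1.00).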

Other observations

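Igf2os, an antisense transcript annotated at the Igf2 locus, was named after its values were seen. Its probe lay at 6.54 to 6.63 at day 7, 6.51 to 6.71 at day 3 and 6.52 to 6.72 in virgin mice, near background. Its difference at day 7 against virgin mice was -0.08 (95% confidence interval -0.29 to 0.14).

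Several network genes could not be read at this signal. Of 51 with a named probe, 14 were under background in every group mean, among them Igfbp1 and Igfbp6, the binding proteins outside the members.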
